A study of Homo sapiens with 40 samples.

Results

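Wild-type cells of SEES3, an established human embryonic stem cell line, that had been taken to ectoderm (Ecto) were compared with wild-type cells of the same line taken to endoderm (Endo) and to mesoderm (Meso). Each layer had 2 libraries, so the comparison rests on 6 of the 40 libraries of the series. A gene was kept where its level in ectoderm differed from endoderm and from mesoderm in the same direction, and 1742 of 15444 tested genes met that rule, out of 16742 genes in the layer tables. The study set wild-type (WT) cells beside cells labelled as lacking UTX (a histone H3 lysine 27 demethylase encoded by KDM6A), its Y-linked paralog UTY, or both, which the titles name XKO, YKO and DKO. These knockouts, with 2 libraries per layer and genotype, served here only to follow the wild-type genes into other libraries, and the undifferentiated and H9 libraries were not used. RNA was polyA-selected and sequenced from a directional library. The layer names come from the sample titles, while the labels give every sample's cell type as pluripotent stem cells. The culture protocol, the days of differentiation and the number of clones were not in the sources used here. Levels are in TPM, a transcript's share of its library, which scales each library to the same total after division by transcript length. Differences are in log2(TPM + 1) and were tested with limma, with p-values adjusted by the Benjamini-Hochberg method over all genes tested. A gene was called higher or lower in ectoderm at an adjusted p under 0.05 against both layers, and the p given for such a gene is the larger of both.

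The ectoderm of the early embryo gives rise to the nervous system and to the epidermis and its derivatives. Human pluripotent cells form neural ectoderm when Nodal and BMP signals are low, and without posteriorizing signals such as WNT, FGF and retinoic acid the neural plate keeps an anterior, forebrain character. SOX2 and its relatives maintain neural progenitors, PAX6 marks early human neuroectoderm, and SIX3, HESX1 and LHX5 are homeobox factors of the anterior neural plate. Endoderm and mesoderm pass through a primitive streak stage, which is driven by Nodal and WNT and marked by MIXL1, EOMES and TBXT.

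The libraries of each layer resembled each other more than those of the other layers. Across genes, log2(TPM + 1) correlated at 0.932 to 0.948 between the libraries of a layer and at 0.797 to 0.815 between layers, and genes are not independent replicates. From 12.8% to 20.1% of the genes were listed at 0 per library, and the median level was 13.2 to 16.4 TPM. The tables give no read totals, so the depth behind a value is not known, and a gene listed at 0 may be a failed estimate. In each library 4 to 7 genes were listed at 0 although their mean was above 50 TPM in the other libraries of the layer. Each layer has a table of its own, so layer and table cannot be told apart. In bulk samples, fewer cells of a type and less RNA per cell cannot be told apart either.

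All 5 ectoderm markers were highest in the ectoderm libraries, and 3 of them passed the test against both layers. The markers were set with wild-type results known, so their values and p-values are a description and no independent support. SOX2 was at 1353 and 1395 TPM in Ecto, 152 and 165 in Endo and 8.15 and 6.05 in Meso, a log2 difference of 3.11 ± 0.15 against Endo and 7.42 ± 0.15 against Meso (SE; adjusted p = 0.00029). LHX5 (chr12:113462034-113472280, minus strand, GRCh38) was at 537 and 639.6 TPM in Ecto, 4.69 and 4.84 in Endo and 0 in both Meso libraries. Its difference from Endo was 6.67 ± 0.25 (adjusted p = 0.000138). PAX6 was lower in level, at 26.4 and 25.8 TPM in Ecto, 0.696 and 0 in Endo and 0 in both Meso libraries (adjusted p = 0.00207). PAX6 entered the fit only through the Ecto libraries, in which it is high. SIX3 and HESX1 did not pass against endoderm. SIX3 was at 516 and 569 TPM in Ecto, 188 and 166 in Endo and 2.52 and 0 in Meso, a difference from Endo of 1.61 ± 0.55 (adjusted p = 0.0858). HESX1 was at 211 and 228 TPM in Ecto, 14.4 and 26.5 in Endo and 0 and 7.64 in Meso, a difference from Endo of 3.42 ± 0.97 (adjusted p = 0.051). For both genes the ectoderm libraries lay above all 4 others, and the endoderm libraries lay above both mesoderm libraries. Both passed with a pseudocount of 5, with all 24 layer libraries in the fit, or without either Meso library (adjusted p = 0.00316 to 0.0195), and HESX1 also with a filter of 5 TPM (adjusted p = 0.0457). Over all alternatives the adjusted p ran from 0.00316 to 0.483 for SIX3 and from 0.0041 to 0.293 for HESX1.

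**Figure D1:**
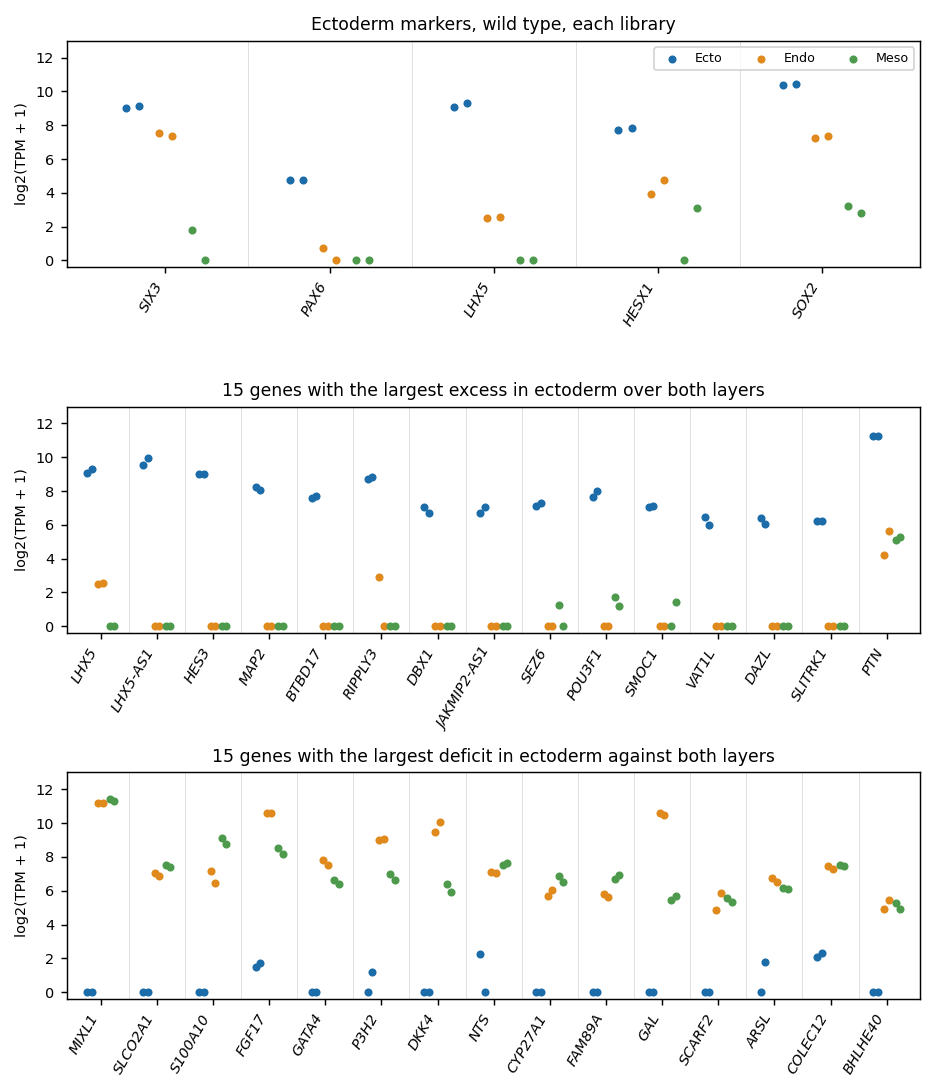
Level of each named gene in each wild-type library, as log2(TPM + 1) on the vertical axis; each point is 1 library, and the 3 colours are the layers. The 5 markers are at the top, followed by the 15 genes with the largest excess and the 15 with the largest deficit in ectoderm. Genes of the lower panels were chosen so that the ectoderm points do not overlap those of the other layers.

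More genes were higher in ectoderm than in both other layers than were lower. Against endoderm, 2039 genes were higher (13.2% of those tested) and 1891 lower (12.2%). Against mesoderm, 2783 were higher (18% of those tested) and 1810 lower (11.7%). Against both layers, 1060 genes were higher (6.86%) and 682 lower (4.42%). The smaller of the 2 log2 differences had a median of 1.34 for the higher genes and 1.49 for the lower genes, and was at least 3 for 155 and 93 of them. The higher genes made up 21.5% and 21.8% of all TPM in the ectoderm libraries and 11.1% to 11.4% in the other 4. The lower genes made up 4.53% and 4.51% in ectoderm and 11.4% to 12.6% in the other 4. Of the 1060 higher genes, 123 were listed at 0 in all 4 Endo and Meso libraries, and 112 of the 682 lower genes were listed at 0 in both Ecto libraries. Because the tests share the ectoderm libraries, a gene that is extreme there enters both. Of the genes tested, 225 reached 1 TPM in both Ecto libraries and in none of the others, and 156 of these were called higher. The excess of higher calls depended on the scaling: median-of-ratios scaling, which lowers the all-gene median difference from 0.10 to 0.00 against Endo and from 0.15 to 0.02 against Meso, gave 789 higher and 861 lower genes, so that 47.8% of calls were higher in place of 60.8%. The counts also fell with fewer libraries, to 394 higher and 402 lower without Ecto 1, 412 and 368 without Ecto 2, 494 and 321 without Endo 1, 569 and 349 without Endo 2, 620 and 362 without Meso 1, and 723 and 422 without Meso 2.

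**Figure D2:**
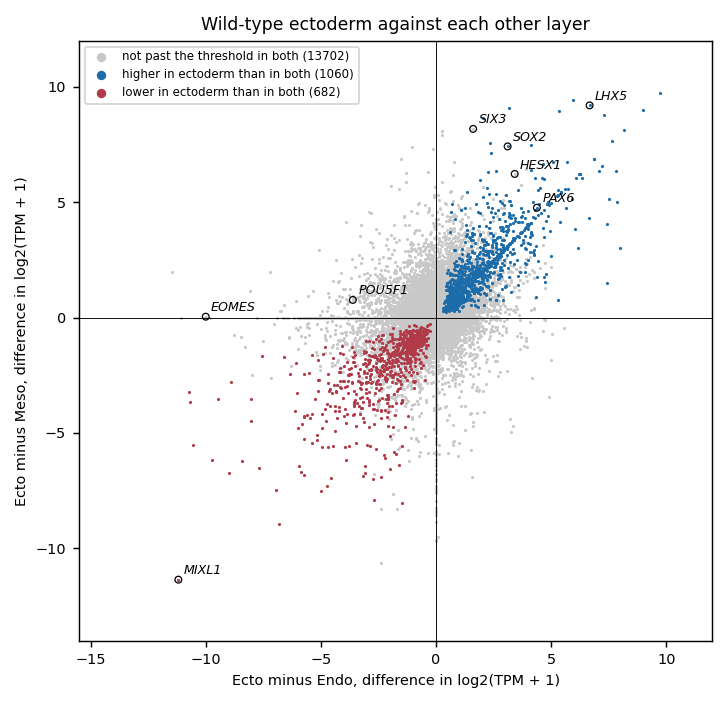
Difference of wild-type ectoderm from endoderm (horizontal axis) and from mesoderm (vertical axis) in log2(TPM + 1), with 1 point per tested gene. Blue points are the 1060 genes called higher and red points the 682 called lower in ectoderm than in both layers; the open circles are named genes, and SIX3 and HESX1 lie among the grey points. Both axes share the ectoderm libraries.

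Genes lay close to the threshold on both sides of it. ZNF766, just inside among the higher genes, was at 29.2 and 28.3 TPM in Ecto, 17.7 and 13.5 in Endo and 15.9 and 14.5 in Meso (adjusted p = 0.04997). ATPAF1, just outside, was at 109 and 102 TPM in Ecto, 64.6 and 68.8 in Endo and 58.9 and 80.4 in Meso (adjusted p = 0.05023). Among the lower genes, the growth factor gene FGF19 was just inside, at 26.1 and 8.12 TPM in Ecto, 67.1 and 43.4 in Endo and 915 and 848 in Meso (adjusted p = 0.04997). The glycolytic gene PFKP was just outside, at 17.7 and 16.3 TPM in Ecto, 29.8 and 38.4 in Endo and 42.4 and 28.04 in Meso (adjusted p = 0.05054).

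The genes with the largest excess in ectoderm included regulators of neural progenitors, genes of neurons and the antisense neighbour of LHX5. They were ranked by the smaller of their 2 differences, and 9 of the 15 largest were listed at 0 in all 4 Endo and Meso libraries, so no fold is given for them. These 9 entered the fit only through the Ecto libraries in which they are high, so their p-values are no independent support. The same holds for all 156 higher genes that reached 1 TPM in both Ecto libraries and in none of the others, PAX6 among them. LHX5-AS1, an antisense RNA next to LHX5, was at 739 and 991 TPM in Ecto and listed at 0 in all 4 Endo and Meso libraries (adjusted p = 8.92e-05). HES3, a repressor of the HES family that acts in neural progenitors, was at 509.8 and 510.2 TPM in Ecto and listed at 0 in all 4 Endo and Meso libraries (adjusted p = 0.000102). MAP2, a microtubule protein of neuronal dendrites, was at 298 and 267 TPM in Ecto and listed at 0 in all 4 Endo and Meso libraries (adjusted p = 0.000172). All 3 were thus seen in ectoderm alone among the wild-type libraries. DBX1, a homeobox factor of neural tube progenitors, was at 134 and 101 TPM in Ecto and listed at 0 in all 4 Endo and Meso libraries, and SLITRK1, a synaptic membrane protein gene, at 74.3 and 72.9 TPM in Ecto and listed at 0 in all 4 Endo and Meso libraries. The other 4 genes listed at 0 outside ectoderm were BTBD17, JAKMIP2-AS1, VAT1L and DAZL, at 63.1 to 209.7 TPM in the Ecto libraries. DAZL, an RNA-binding protein gene best known from germ cells, was at 85.1 and 64.5 TPM there (adjusted p = 0.000562).

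The remaining genes of the leading 15 had some signal outside ectoderm. PTN, which encodes the growth factor pleiotrophin, was the most abundant of them, at 2495 and 2411 TPM in Ecto, 17.7 and 48.8 in Endo and 33.7 and 37.5 in Meso (differences 6.33 ± 0.43 against Endo and 6.07 ± 0.43 against Meso; adjusted p = 0.000739). POU3F1, a POU factor also known as OCT6 that promotes neural fate, was at 200.1 and 257 TPM in Ecto, 0 in both Endo libraries and 2.302 and 1.28 in Meso (adjusted p = 0.000339). RIPPLY3, a transcriptional corepressor gene, was at 416 and 454 TPM in Ecto, 6.58 and 0 in Endo and 0 in both Meso libraries. Its call was lost without Ecto 1 (adjusted p = 0.0578) or without Ecto 2 (adjusted p = 0.0601). SEZ6, a neuronal membrane protein gene, was at 138 and 156 TPM in Ecto, 0 in both Endo libraries and 1.38 and 0 in Meso, and SMOC1, a secreted BMP modulator gene, at 132 and 139 TPM in Ecto, 0 in both Endo libraries and 0 and 1.74 in Meso. The lowest ectoderm library lay above every other library for all 1060 higher genes, against 22.7% of all tested genes. The same libraries chose the 1060 genes, so this order is no further support.

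Neural progenitor genes formed the list with the most calls by number: 19 of 34 tested genes were higher in ectoderm than in both layers and 0 were lower (55.9% and 0%, against 6.86% and 4.42% of all genes tested). The list median was 2.97 against Endo and 3.04 against Meso, beside 0.10 and 0.15 over all tested genes. This list and those below were chosen with earlier results of these data known, so their shares are a description and no independent support. SOX1, SOX2, SOX3 and SOX21, SOX genes of early neural tissue, were all called. SOX21 (chr13:94709622-94712399, minus strand) was at 712 and 649.7 TPM in Ecto, 9.83 and 10.1 in Endo and 0 in both Meso libraries (adjusted p = 0.000116). SOX1 was at 85.9 and 64.9 TPM in Ecto, 0 and 1.08 in Endo and 1.498 and 0 in Meso (adjusted p = 0.00274), and the X-linked SOX3 at 96.8 and 117 TPM in Ecto, 3.45 and 0 in Endo and 0 in both Meso libraries (adjusted p = 0.0046). ZIC1, which encodes a zinc finger protein of neural plate and dorsal neural tube, was at 368 and 375 TPM in Ecto, 12.6 and 12.3 in Endo and 21.00 and 17.8 in Meso (differences 4.79 ± 0.16 against Endo and 4.19 ± 0.16 against Meso; adjusted p = 9.59e-05). FABP7, a fatty acid binding protein of radial glia, was at 205 and 235 TPM in Ecto, 2.89 and 3.98 in Endo and 8.23 and 6.11 in Meso (differences 5.65 ± 0.27 against Endo and 4.77 ± 0.27 against Meso; adjusted p = 0.000323). FRZB, a secreted WNT antagonist, was at 538 and 468 TPM in Ecto, 13.6 and 9.37 in Endo and 0 in both Meso libraries, a difference from Endo of 5.35 ± 0.27 (adjusted p = 0.000334). NES, which encodes the intermediate filament nestin, differed less, at 474 and 497 TPM in Ecto, 285 and 321 in Endo and 205 and 192 in Meso (differences 0.68 ± 0.10 against Endo and 1.29 ± 0.10 against Meso; adjusted p = 0.00628).

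Within the ZIC family the calls divided neighbours. ZIC4 overlaps ZIC1 on the opposite strand of chromosome 3 by the GENCODE v29 positions. Like ZIC1 it was higher in ectoderm, at 21.6 and 19.96 TPM in Ecto, 0.844 and 1.16 in Endo and 0 and 0.446 in Meso (adjusted p = 0.00362). On chromosome 13, ZIC5 was called higher, at 143 and 156 TPM in Ecto, 66.6 and 54.4 in Endo and 5.89 and 11.5 in Meso (adjusted p = 0.0294). ZIC2, whose start lies 9863 bases from that of ZIC5, was at 642 and 649 TPM in Ecto, 607 and 708 in Endo and 45.6 and 35.8 in Meso, with a difference from Endo of -0.02 ± 0.14 (adjusted p = 0.943). For ZIC2 the Ecto and Endo libraries were not told apart by the test, and the gene was lowest in mesoderm (adjusted p = 9.59e-05 against Meso). Other neural genes that did not pass against endoderm were CRABP1, a retinoic acid binding protein gene at 519.7 and 501 TPM in Ecto, 472 and 443 in Endo and 21.4 and 15.9 in Meso, and the RNA-binding protein gene MSI1, at 100.4 and 98.6 TPM in Ecto, 98.2 and 143 in Endo and 84.4 and 71.7 in Meso.

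The bases just before the start of 4 of the called neural regulators are shown, since all 4 were below 25 TPM in every Endo and Meso library and 2 of them, SOX21 and ZIC1, lie beside a called neighbour. They are the 250 bases before the RefSeq start on GRCh38.p14, 5′ to 3′ on the gene's strand, with no base of an annotated UTR in GENCODE v29. The windows are chr1:6243929-6244178 (plus strand), chr13:112066899-112067148 (plus), chr13:94712546-94712795 (minus) and chr3:147409115-147409364 (plus). Capitals mark matches, on either strand, to TATAAA (the TATA box), TAATCC (an OTX-type site), TAATTA (a homeodomain-type site), ACAAAG (a SOX-type site) or CACCTG (an E-box).
HES3: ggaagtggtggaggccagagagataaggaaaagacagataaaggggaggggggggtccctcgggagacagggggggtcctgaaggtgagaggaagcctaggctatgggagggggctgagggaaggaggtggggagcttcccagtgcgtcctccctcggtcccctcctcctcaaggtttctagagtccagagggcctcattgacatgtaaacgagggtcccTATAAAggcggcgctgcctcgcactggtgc
SOX1: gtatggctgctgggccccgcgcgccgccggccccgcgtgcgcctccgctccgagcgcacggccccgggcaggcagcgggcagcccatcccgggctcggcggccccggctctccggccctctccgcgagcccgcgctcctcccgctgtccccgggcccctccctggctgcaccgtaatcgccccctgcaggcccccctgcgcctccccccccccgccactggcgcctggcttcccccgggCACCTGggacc
SOX21: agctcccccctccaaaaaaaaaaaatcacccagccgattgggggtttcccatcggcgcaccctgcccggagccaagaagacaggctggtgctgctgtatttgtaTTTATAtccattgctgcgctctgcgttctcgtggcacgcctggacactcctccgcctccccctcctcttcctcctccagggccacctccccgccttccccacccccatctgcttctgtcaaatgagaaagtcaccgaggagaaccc
ZIC1: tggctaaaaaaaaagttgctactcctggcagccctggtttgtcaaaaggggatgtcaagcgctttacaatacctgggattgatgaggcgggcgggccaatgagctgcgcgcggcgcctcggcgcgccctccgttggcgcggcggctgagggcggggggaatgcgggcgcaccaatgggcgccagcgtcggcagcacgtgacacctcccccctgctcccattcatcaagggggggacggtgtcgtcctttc
The HES3 window holds 1 match, TATAAA, which begins 30 bases before the start. In SOX1 the 1 match is CACCTG, beginning 11 bases before the start, and in SOX21 it is TATAAA on the opposite strand, beginning 146 bases before the start. The ZIC1 window holds none of these letters, and GC content ran from 58.8% in SOX21 to 82% in SOX1. The SOX21 window also holds an exon of SOX21-AS1, which runs the other way. The RefSeq start used for ZIC1 lies inside the GENCODE v29 gene, past the end of ZIC4.

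The same letters were counted over all promoters that could be matched. RefSeq windows of 300 bases (250 before to 50 after the start) were matched for 808 of the 1060 higher genes, 522 of the 682 lower genes and 11438 of the 15444 tested genes. TATAAA was in 7.67% of the windows of higher genes, 7.66% of those of lower genes and 5.7% of all. ACAAAG was in 14.7%, 10.7% and 11.1%, TAATCC in 5.07%, 3.45% and 4.14%, TAATTA in 2.6%, 2.3% and 2.08%, and CACCTG in 17.2%, 14.4% and 18.4%. The median GC content was 64.3%, 69% and 65.3%, and the median ratio of observed to expected CpG was 0.828, 0.815 and 0.836. No test was made of these shares, and a match says only that the letters are there.

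Among forebrain and eye field factors, 8 of 17 tested genes were higher in ectoderm than in both layers and 1 was lower (47.1% and 5.88%, against 6.86% and 4.42% of all genes tested), with a list median of 2.07 against Endo and 3.36 against Meso. FEZF1, a zinc finger repressor of the anterior neural plate, was at 359 and 317 TPM in Ecto, 17.1 and 8.402 in Endo and 4.64 and 3.88 in Meso (differences 4.696 ± 0.34 against Endo and 6.01 ± 0.34 against Meso; adjusted p = 0.000866). FEZF2, its relative, was at 45.3 and 33.2 TPM in Ecto and listed at 0 in all 4 Endo and Meso libraries (adjusted p = 0.000902). LHX2, a LIM homeobox factor of the eye field, was at 19.01 and 50.3 TPM in Ecto, 0 and 1.98 in Endo and 0 in both Meso libraries, and the eye field factor RAX was low, at 3.13 and 1.95 TPM in Ecto and listed at 0 in all 4 Endo and Meso libraries. OTX2, a factor of the anterior brain that is also made in early endoderm, was higher in endoderm than in ectoderm, at 359.5 and 402 TPM in Ecto, 667 and 757 in Endo and 24.2 and 31.5 in Meso (difference from Endo -0.900 ± 0.15, adjusted p = 0.0113). The gene called lower was TBX3, a T-box factor of many tissues, listed at 0 in both Ecto libraries, at 27.7 and 24.1 TPM in Endo and 155 and 158 in Meso (adjusted p = 0.000335).

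HOX and CDX genes were at or near 0 in ectoderm and in most cases in endoderm too, and were high in mesoderm. Of 31 HOX genes in the tables, which pattern the body axis behind the forebrain, 30 were listed at 0 in both Ecto libraries, 27 in both Endo libraries and 0 in both Meso libraries. Their summed level was 0 and 2.67 TPM in Ecto, 21.8 and 22.6 in Endo, and 2552 and 2501 in Meso. HOXB9, a gene of the trunk, was listed at 0 in all 4 Ecto and Endo libraries and lay at 810.3 and 825 TPM in Meso. Against both layers, 0 of 28 tested HOX genes were higher and 1 was lower (0% and 3.57%, against 6.86% and 4.42% of all genes tested). It was HOXB13, listed at 0 in both Ecto libraries, at 18.9 and 17.9 TPM in Endo and 11.2 and 3.75 in Meso (adjusted p = 0.0117). CDX1 and CDX2, the caudal homeobox activators of HOX genes, were listed at 0 in all 4 Ecto and Endo libraries and lay at 931 and 700.4 TPM and 450.3 and 471 TPM in Meso. Of 25 tested midbrain, hindbrain and caudal factors, 5 were higher in ectoderm and 0 lower (20% and 0%, against 6.86% and 4.42% of all genes tested). They were the Iroquois genes IRX1, IRX2 and IRX5, the roof plate factor LMX1A and the paired box gene PAX8. The list median was 0.00 against Endo and -1.71 against Meso. Summed, the list was at 630 and 525 TPM in Ecto, 156 and 173 in Endo and 2020 and 1735 in Meso. IRX1 was at 126 and 117 TPM in Ecto, 10.4 and 4.75 in Endo and 13.1 and 16.5 in Meso (differences 3.92 ± 0.36 against Endo and 2.96 ± 0.36 against Meso; adjusted p = 0.00311). LMX1A was at 21.3 and 22.96 TPM in Ecto, 1.72 and 2.36 in Endo and 0 in both Meso libraries (adjusted p = 0.00473). The midbrain-hindbrain boundary factor EN1 was at 2.08 and 0 TPM in Ecto, 0 in both Endo libraries and 0 and 1.33 in Meso and was not called.

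Several long non-coding genes called higher in ectoderm lay beside a coding gene called higher. Of 57 such long non-coding genes, 21 had a coding gene's start within 5000 bases of their own, and for 8 of these the nearest one was called higher (38.1%, against 8.4% of the 655 tested long non-coding genes with such a neighbour). LHX5 and LHX5-AS1 start 277 bases apart on opposite strands and overlap by 278 bases. SOX21-AS1 starts 317 bases from SOX21 without overlap, and was at 105 and 94.5 TPM in Ecto, 4.44 and 2.04 in Endo and 0 in both Meso libraries (adjusted p = 0.00146). FEZF1-AS1 overlaps FEZF1 by 6420 bases, but their starts lie 7033 bases apart, so the pair is not among the 8. It was at 122 and 198 TPM in Ecto, 4.28 and 2.95 in Endo and 0 and 1.13 in Meso (adjusted p = 0.0019 for FEZF1-AS1). CRNDE, whose start is 1673 bases from that of IRX5, was at 26.2 and 30.2 TPM in Ecto, 11.7 and 12.8 in Endo and 4.18 and 4.14 in Meso (adjusted p = 0.0313). Whether counting used the strand is not stated, so reads of overlapping partners may be shared. These neighbours were examined after the calls were seen, and no test was made.

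Lists of neurons and of other ectoderm derivatives were counted in the same way. Of 17 tested neuron genes, 5 were higher (DCX, MAP2, INA, SYT1 and STMN4) and 1 lower, NHLH2 (29.4% and 5.88%, against 6.86% and 4.42% of all genes tested), with a list median of 1.02 against Endo and 1.11 against Meso. With median-of-ratios scaling 3 were higher. DCX, a microtubule protein of migrating neurons, was at 14.5 and 8.69 TPM in Ecto, 2.11 and 2.42 in Endo and 0 in both Meso libraries (adjusted p = 0.0252), and SYT1, a calcium sensor of synaptic vesicles, at 50.1 and 50.9 TPM in Ecto, 10.1 and 8.51 in Endo and 28.8 and 27.97 in Meso (adjusted p = 0.0309). ELAVL3, NEUROG1 and NHLH1, which mark neuronal commitment, were listed at 0 in all 6 libraries. The neuronal tubulin gene TUBB3 was at 0.7995 and 0.996 TPM in Ecto, 0.968 and 1.33 in Endo and 1.84 and 0 in Meso. The neuron list summed to 908 and 911 TPM in Ecto, 244 and 220.5 in Endo, and 175 and 134 in Meso.

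Of 18 tested neural crest and border genes, 3 were higher, PAX7, SOX9 and NR2F2, and 2 lower (16.7% and 11.1%, against 6.86% and 4.42% of all genes tested). The list median was 0.00 against Endo and 0.43 against Meso. Summed, the list was lowest in ectoderm, at 245 and 215 TPM in Ecto, 335 and 307 in Endo and 2322 and 2045 in Meso. PAX7, a dorsal neural tube and crest factor, was at 34.8 and 29.7 TPM in Ecto, 4.44 and 1.53 in Endo and 0 in both Meso libraries (adjusted p = 0.00808), and SOX9, a crest and glial factor, at 52.8 and 52.7 TPM in Ecto, 1.83 and 1.26 in Endo and 8.68 and 8.704 in Meso (adjusted p = 0.00301). The crest factor FOXD3 was listed at 0 in both Ecto libraries, and SOX10 was at 2.903 and 0 TPM there. SNAI1, a repressor of epithelial genes, was lower, at 6.96 and 8.67 TPM in Ecto, 42.2 and 31.9 in Endo and 248 and 214 in Meso (adjusted p = 0.00219). Of 18 tested genes of surface ectoderm and simple epithelium, 2 were higher and 5 lower (11.1% and 27.8%, against 6.86% and 4.42% of all genes tested). The simple epithelial keratin KRT8 was at 80.2 and 105 TPM in Ecto, 719 and 719 in Endo and 401 and 347 in Meso (differences -2.95 ± 0.15 against Endo and -2.01 ± 0.15 against Meso; adjusted p = 0.000722). KRT18, its partner, was at 83.1 and 108 TPM in Ecto, 628 and 533 in Endo and 407 and 348 in Meso (adjusted p = 0.00102). Both have many pseudogene copies, so their values are uncertain. GATA3, a factor of surface ectoderm and trophoblast, was listed at 0 in both Ecto libraries, at 14.8 and 11.6 TPM in Endo and 6.03 and 12.3 in Meso (adjusted p = 0.00486). Levels of the epidermal keratins are not reported here.

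Of 26 tested core pluripotency genes, 4 were higher in ectoderm than in both layers, LIN28A, LIN28B, SALL2 and USP44, and 1 was lower (15.4% and 3.85%, against 6.86% and 4.42% of all genes tested). With median-of-ratios scaling 3 were higher and 2 lower. POU5F1, which encodes OCT4, was at 136 and 126 TPM in Ecto, 1607 and 1607 in Endo and 85.2 and 68.5 in Meso, lower than in Endo by a difference of -3.61 ± 0.13 and above Meso by 0.77 ± 0.13 (adjusted p = 0.00826). NANOG was at 1.100 and 0 TPM in Ecto, 144 and 138 in Endo and 0 in both Meso libraries. The RNA-binding protein gene LIN28A, which blocks let-7 maturation, was at 3388 and 3437 TPM in Ecto, 1759 and 1803 in Endo and 1037 and 1095 in Meso (differences 0.94 ± 0.06 against Endo and 1.68 ± 0.06 against Meso; adjusted p = 0.000703). SALL2, a zinc finger gene also made in neural tissue, was at 648 and 629 TPM in Ecto, 287 and 228 in Endo and 63.4 and 46.6 in Meso, and the deubiquitinase gene USP44 at 184 and 208 TPM in Ecto, 40.1 and 43.3 in Endo and 6.35 and 4.25 in Meso. DPPA4, a chromatin factor of pluripotent cells, was at 272 and 278 TPM in Ecto, 325 and 367 in Endo and 25.96 and 33.5 in Meso. The gene called lower was TDGF1, the Nodal coreceptor CRIPTO, listed at 0 in both Ecto libraries, at 1585 and 1798 TPM in Endo and 10.97 and 6.11 in Meso (adjusted p = 0.00135). The part that remaining undifferentiated cells have in these levels was not tested.

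**Figure D3:**
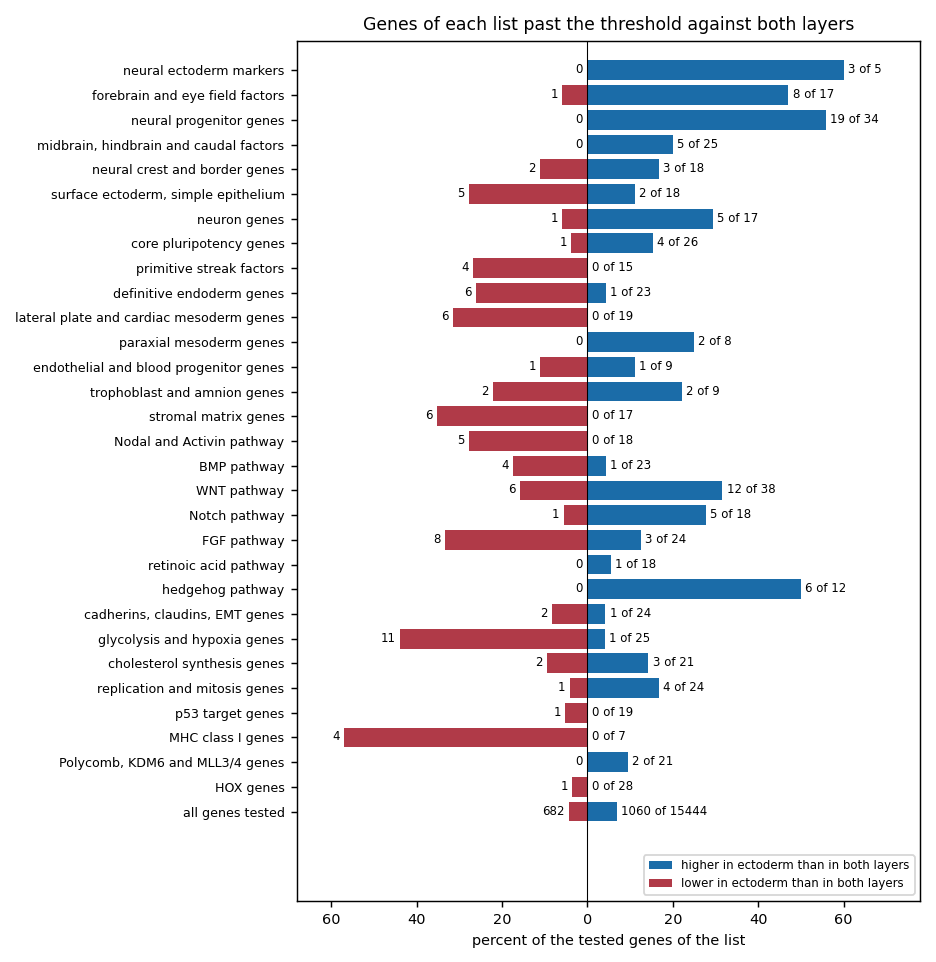
Share of the tested genes of each list that were called higher (blue, to the right) or lower (red, to the left) in wild-type ectoderm than in both other layers, in percent; the numbers beside the bars are the counts called and, on the right, the number tested. The last row is all 15444 genes tested. The largest shares are 60% higher, for the 5 neural ectoderm markers, and 57.1% lower, for the 7 MHC class I genes. Neural progenitor genes reach 55.9% higher and glycolysis and hypoxia genes 44% lower.

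The genes with the largest deficit in ectoderm included regulators of the primitive streak, endoderm and heart, and secreted or membrane proteins of those layers. Of the 15 largest, 10 were listed at 0 in both Ecto libraries. These 10 entered the fit only through Endo and Meso libraries, in which they are high, so their p-values are no independent support. That limit applies to every other lower gene listed at 0 in both Ecto libraries. MIXL1 (chr1:226223618-226227054, plus strand), a homeobox factor of mesendoderm, was listed at 0 in both Ecto libraries, at 2352 and 2310.4 TPM in Endo and 2734 and 2526 in Meso (adjusted p = 7.25e-07). GATA4, a zinc finger factor of endoderm and heart, was listed at 0 in both Ecto libraries, at 228 and 185 TPM in Endo and 99.9 and 83.9 in Meso (adjusted p = 7.7e-05). FGF17, a growth factor of the FGF8 subfamily, was at 1.81 and 2.25 TPM in Ecto, 1524 and 1527 in Endo and 361 and 283 in Meso (differences -8.98 ± 0.16 against Endo and -6.73 ± 0.16 against Meso; adjusted p = 3.89e-05). S100A10, a partner of annexin A2 at the membrane, was listed at 0 in both Ecto libraries, at 142 and 87.9 TPM in Endo and 559.8 and 439.5 in Meso (adjusted p = 0.000161). The prostaglandin transporter gene SLCO2A1 was listed at 0 in both Ecto libraries, at 132 and 115 TPM in Endo and 184 and 169.8 in Meso. GAL, which encodes the neuropeptide galanin, was listed at 0 in both Ecto libraries, at 1576 and 1438 TPM in Endo and 42.00 and 49.7 in Meso (adjusted p = 7.7e-05). Its Endo libraries lay far above its Meso libraries. NTS, which encodes neurotensin, was at 3.82 and 0 TPM in Ecto, 139 and 134 in Endo and 184 and 198 in Meso, and ARSL, an arylsulfatase gene, at 0 and 2.43 TPM in Ecto, 106 and 89.4 in Endo and 71.8 and 67.5 in Meso. The NTS call was lost without Endo 1 (adjusted p = 0.0678) or Endo 2 (adjusted p = 0.0626), and the ARSL call without Endo 1 (adjusted p = 0.0533). COLEC12, a scavenger receptor gene, was at 3.23 and 4.03 TPM in Ecto, 173 and 157 in Endo and 181 and 177 in Meso (differences -5.17 ± 0.16 against Endo and -5.29 ± 0.16 against Meso; adjusted p = 7.7e-05). The other 6 genes of the 15 (P3H2, DKK4, CYP27A1, FAM89A, SCARF2 and BHLHE40) reached at most 1.33 TPM in an Ecto library and 28.2 TPM or more in each Endo and Meso library.

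The lists of primitive streak, definitive endoderm and lateral plate mesoderm had more lower than higher genes, while those of paraxial mesoderm and of endothelial and blood progenitors did not. Of 15 tested primitive streak factors, 0 were higher and 4 lower (0% and 26.7%, against 6.86% and 4.42% of all genes tested). Of 23 definitive endoderm genes, 1 was higher, FRZB, and 6 lower (4.35% and 26.1%). Of 19 lateral plate and cardiac mesoderm genes, 0 were higher and 6 lower (0% and 31.6%). Several factors that define a layer were not called, and these were at or near 0 in 2 of the 3 layers. EOMES, a T-box factor of endoderm precursors, was at 0 and 2.02 TPM in Ecto, 1726 and 1829.6 in Endo and 1.87 and 0 in Meso. SOX17, the endoderm factor, was listed at 0 in all 4 Ecto and Meso libraries and lay at 913 and 881 TPM in Endo. CER1, a secreted Nodal and BMP antagonist, was at 14.5 and 6.01 TPM in Ecto, 29361 and 29141 in Endo and 0 and 6.18 in Meso. TBXT, the brachyury gene, was lower in ectoderm than in both, at 9.12 and 17.04 TPM in Ecto, 60.7 and 45.6 in Endo and 454 and 481 in Meso (differences -1.99 ± 0.30 against Endo and -5.11 ± 0.30 against Meso; adjusted p = 0.00741). CXCR4, a chemokine receptor often used to sort definitive endoderm, was at 24.2 and 20.1 TPM in Ecto, 381 and 347 in Endo and 479 and 417 in Meso (differences -3.98 ± 0.14 against Endo and -4.28 ± 0.14 against Meso; adjusted p = 0.000102), and so was also high in mesoderm. Of 8 tested paraxial mesoderm genes, 2 were higher in ectoderm and 0 lower (25% and 0%). The higher genes were DLL1 and LFNG, both also Notch pathway genes. MSGN1 and HES7, which mark the presomitic mesoderm, were listed at 0 in all 4 Ecto and Endo libraries and lay at 112 and 111 TPM and 83.5 and 74.8 TPM in Meso.

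The WNT pathway list held genes called in each direction. The higher genes were ligands (WNT1, WNT7B and WNT8B), receptors (FZD1, FZD2 and FZD3), R-spondins (RSPO1, RSPO2 and RSPO3) and secreted antagonists (SFRP1, SFRP2 and FRZB), and the lower genes were WNT3A, DKK4, AXIN2, SP5, LGR5 and TCF7. Of 38 tested genes, 12 were higher and 6 lower (31.6% and 15.8%, against 6.86% and 4.42% of all genes tested), with a list median of 0.06 against Endo and -0.48 against Meso. The same counts came from both other scalings. Among ligands, WNT8B, a ligand of the forebrain, was at 11.1 and 17.2 TPM in Ecto and listed at 0 in all 4 Endo and Meso libraries (adjusted p = 0.00273). WNT1 and WNT7B were below 5 TPM in each Ecto library. WNT3A was listed at 0 in both Ecto libraries, at 7.197 and 1.65 TPM in Endo and 86.6 and 50.8 in Meso (adjusted p = 0.0499). Among receptors, FZD2 was at 236 and 221 TPM in Ecto, 49.4 and 44.5 in Endo and 27.1 and 33.2 in Meso (differences 2.26 ± 0.15 against Endo and 2.89 ± 0.15 against Meso; adjusted p = 0.000749), and FZD3 at 149.8 and 116 TPM in Ecto, 21.4 and 30.1 in Endo and 22.3 and 26.2 in Meso (adjusted p = 0.00222). RSPO3, a secreted amplifier of WNT signals, was at 22.7 and 31.3 TPM in Ecto, 0 in both Endo libraries and 6.88 and 6.14 in Meso (adjusted p = 0.0149). The secreted antagonist SFRP1 was at 1804 and 1891 TPM in Ecto, 1061 and 1193 in Endo and 62.01 and 57.03 in Meso (differences 0.71 ± 0.09 against Endo and 4.93 ± 0.09 against Meso; adjusted p = 0.00492), and SFRP2 at 1147 and 1218 TPM in Ecto, 713 and 622 in Endo and 58.1 and 60.95 in Meso (adjusted p = 0.00366).

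Several WNT targets were lower in ectoderm than in both layers. Among them, AXIN2 and SP5 had their highest values in mesoderm and DKK4 in endoderm. AXIN2, a feedback inhibitor and general target, was at 26.1 and 16.97 TPM in Ecto, 46.7 and 52.97 in Endo and 390.4 and 452 in Meso (differences -1.202 ± 0.22 against Endo and -4.25 ± 0.22 against Meso; adjusted p = 0.0143). SP5, a target in the streak, was at 14.3 and 21.4 TPM in Ecto, 135 and 92.97 in Endo and 958 and 940.4 in Meso (differences -2.61 ± 0.25 against Endo and -5.68 ± 0.25 against Meso; adjusted p = 0.00172). LGR5, a receptor for R-spondins and a target, was at 2.27 and 1.42 TPM in Ecto, 11.01 and 7.57 in Endo and 13.1 and 16.7 in Meso (adjusted p = 0.0203). The antagonist gene DKK4, itself a target, was listed at 0 in both Ecto libraries, at 698 and 1054 TPM in Endo and 83.8 and 59.4 in Meso (adjusted p = 0.00016). LEF1, a nuclear mediator and target, differed from this order, at 29.9 and 27.6 TPM in Ecto, 0 in both Endo libraries and 304 and 338 in Meso, and NKD1 at 6.49 and 5.96 TPM in Ecto, 6.62 and 4.84 in Endo and 439 and 439.6 in Meso.

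**Figure D4:**
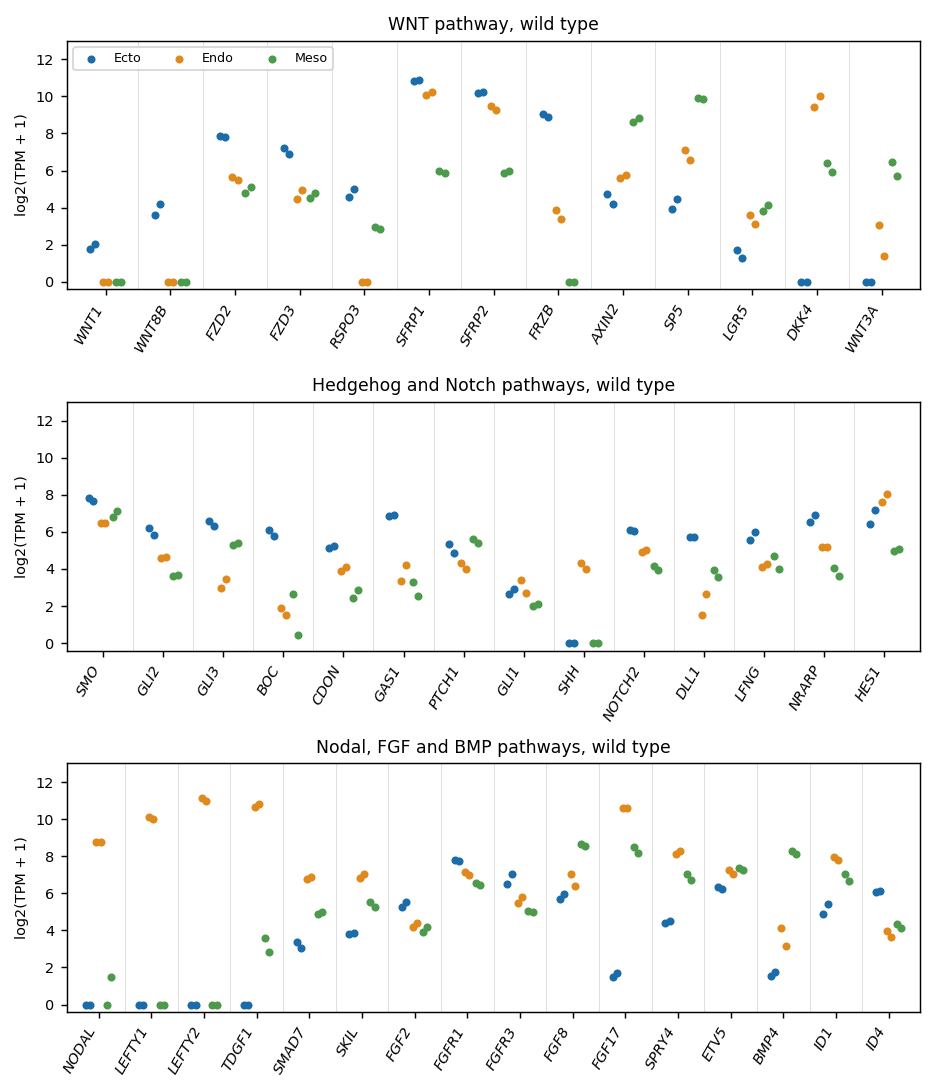
Level of genes of 6 signalling pathways in each wild-type library, as log2(TPM + 1); each point is 1 library and the colours are the layers. FZD2, FZD3, SFRP1, SFRP2, FRZB, SMO, GLI2, GLI3, BOC, CDON and GAS1 are highest in ectoderm, while AXIN2, SP5, SMAD7 and SPRY4 are lowest there; LEFTY1 and LEFTY2 are above 0 in endoderm alone.

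The hedgehog genes SMO, GAS1, BOC, CDON, GLI2 and GLI3 were higher in ectoderm, while the targets PTCH1 and GLI1 were not called. Of 12 tested hedgehog genes, 6 were higher and 0 lower (50% and 0%, against 6.86% and 4.42% of all genes tested), with a list median of 1.08 against Endo and 0.82 against Meso. SMO, the signal transducer, was at 227 and 204 TPM in Ecto, 89.3 and 89.5 in Endo and 109 and 138 in Meso (differences 1.26 ± 0.14 against Endo and 0.81 ± 0.14 against Meso; adjusted p = 0.0108). The coreceptors GAS1, BOC and CDON were called, with GAS1 at 113 and 119.9 TPM in Ecto, 9.14 and 17.3 in Endo and 8.68 and 4.84 in Meso (adjusted p = 0.00414) and BOC at 67.2 and 52.96 TPM in Ecto, 2.78 and 1.91 in Endo and 5.29 and 0.368 in Meso (adjusted p = 0.012). GLI3, mostly a repressor of targets, was at 96.7 and 79.8 TPM in Ecto, 6.77 and 10.03 in Endo and 38.1 and 41.6 in Meso (adjusted p = 0.0196). The ligand SHH was listed at 0 in all 4 Ecto and Meso libraries and lay at 19.2 and 15.1 TPM in Endo. PTCH1 was at 40.4 and 27.9 TPM in Ecto, 18.8 and 14.95 in Endo and 48.03 and 42.01 in Meso. The sixth called gene was GLI2.

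Of 18 tested Notch genes, 5 were higher, DLL1, NOTCH2, NRARP, LFNG and MFNG, and 1 lower, HEY2 (27.8% and 5.56%, against 6.86% and 4.42% of all genes tested), with a list median of 0.49 against Endo and 1.39 against Meso. The ligand gene DLL1 was at 52.8 and 52.3 TPM in Ecto, 1.88 and 5.18 in Endo and 14.3 and 10.95 in Meso (differences 3.67 ± 0.42 against Endo and 1.99 ± 0.42 against Meso; adjusted p = 0.0191). The receptor NOTCH2 was at 68.8 and 64.2 TPM in Ecto, 28.8 and 31.8 in Endo and 16.8 and 14.7 in Meso (adjusted p = 0.00956), and NRARP, a target and feedback inhibitor, at 92.1 and 120.4 TPM in Ecto, 35.4 and 35.6 in Endo and 15.5 and 11.5 in Meso (adjusted p = 0.00671). HEY2, a target also known from the heart, was lower, at 2.21 and 2.75 TPM in Ecto, 13.4 and 9.19 in Endo and 27.9 and 39.6 in Meso (adjusted p = 0.0164). HES1, the general target, was at 86.4 and 144 TPM in Ecto, 192 and 264 in Endo and 29.8 and 33.2 in Meso and was higher in endoderm than in ectoderm, by a difference of -1.01 ± 0.28 for Ecto against Endo (adjusted p = 0.0469).

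Called genes of the Nodal and BMP pathways were lower in ectoderm, with ID4 as the exception. Of 18 tested Nodal and Activin genes, 0 were higher and 5 lower, TDGF1, SMAD7, SKIL and TGFB1 among them (0% and 27.8%, against 6.86% and 4.42% of all genes tested), with a list median of -3.59 against Endo and -0.37 against Meso. The ligand NODAL was listed at 0 in both Ecto libraries, at 434 and 438 TPM in Endo and at 0 and 1.82 in Meso. LEFTY1 and LEFTY2, antagonists and targets of Nodal, were listed at 0 in all 4 Ecto and Meso libraries and lay at 1091 and 1038 TPM and 2251 and 2039 TPM in Endo. SMAD7, an inhibitor induced by both pathways, was at 9.43 and 7.34 TPM in Ecto, 107 and 118 in Endo and 28.5 and 30.2 in Meso (differences -3.603 ± 0.20 against Endo and -1.701 ± 0.20 against Meso; adjusted p = 0.00272). SKIL, a repressor of SMAD targets, was at 12.96 and 13.3 TPM in Ecto, 113 and 129.6 in Endo and 44.7 and 36.6 in Meso (adjusted p = 0.00264). The receptor ACVR1B and the mediator SMAD2 were not called, at 62.9 and 57.5 and 17.8 and 13.8 TPM in Ecto.

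Of 23 tested BMP genes, 1 was higher and 4 lower (4.35% and 17.4%, against 6.86% and 4.42% of all genes tested). BMP4 was at 1.92 and 2.39 TPM in Ecto, 16.2 and 7.98 in Endo and 313 and 278 in Meso (differences -1.99 ± 0.35 against Endo and -6.56 ± 0.35 against Meso; adjusted p = 0.0123). The target ID1 was at 28.9 and 41.97 TPM in Ecto, 245 and 221 in Endo and 133 and 102 in Meso (adjusted p = 0.00391), and the decoy receptor BAMBI at 5.55 and 0 TPM in Ecto, 90.7 and 69.3 in Endo and 501 and 427 in Meso (adjusted p = 0.0101). ID4, a target with a role in neural progenitors, was the gene called higher, at 67.4 and 68.7 TPM in Ecto, 14.8 and 11.5 in Endo and 19.4 and 16.7 in Meso (differences 2.296 ± 0.22 against Endo and 1.86 ± 0.22 against Meso; adjusted p = 0.00278). The BMP antagonists lay between the layers: NOG was above Endo and below Meso, at 3.102 and 3.86 TPM in Ecto, 0 in both Endo libraries and 35.7 and 27.8 in Meso (adjusted p = 0.0117), and CHRD below Endo and above Meso, at 4.48 and 4.47 TPM in Ecto, 45.6 and 41.1 in Endo and 1.03 and 0 in Meso (adjusted p = 0.0248).

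In the FGF pathway, 2 receptors and FGF2 were higher, and other ligands and several targets were lower. Of 24 tested genes, 3 were higher and 8 lower (12.5% and 33.3%, against 6.86% and 4.42% of all genes tested). The higher genes were FGF2, FGFR1 and FGFR3, and the lower genes FGF8, FGF17, FGF19, SPRY4, ETV4, ETV5, IL17RD and EGR1, with a list median of -0.88 against Endo and -0.14 against Meso. The receptor FGFR1 was at 219 and 217 TPM in Ecto, 138 and 127 in Endo and 91.4 and 84.6 in Meso (differences 0.71 ± 0.11 against Endo and 1.298 ± 0.11 against Meso; adjusted p = 0.00719) and FGFR3 at 88.1 and 131 TPM in Ecto, 42.99 and 55.1 in Endo and 32.4 and 31.4 in Meso (adjusted p = 0.0204). FGF2, the ligand used to keep human pluripotent cells in culture, was at 36.8 and 45.8 TPM in Ecto, 16.97 and 20.4 in Endo and 14.1 and 16.8 in Meso (adjusted p = 0.0225). The ligand FGF8 was at 50.1 and 62.5 TPM in Ecto, 132 and 83.6 in Endo and 404 and 369 in Meso (adjusted p = 0.0411). SPRY4, a feedback inhibitor and target, was at 19.9 and 21.4 TPM in Ecto, 275 and 311 in Endo and 129 and 103 in Meso (differences -3.76 ± 0.15 against Endo and -2.43 ± 0.15 against Meso; adjusted p = 0.000459). The target ETV5 was at 80.2 and 72.99 TPM in Ecto, 153 and 130.2 in Endo and 166 and 151 in Meso (adjusted p = 0.00744), and the feedback inhibitor IL17RD at 107 and 88.1 TPM in Ecto, 261 and 284 in Endo and 183 and 183 in Meso (adjusted p = 0.0046). Other targets were not called, among them DUSP6, at 185 and 159 TPM in Ecto, 194 and 245 in Endo and 38.9 and 41.4 in Meso.

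Of 25 tested glycolysis and hypoxia genes, 1 was higher in ectoderm and 11 were lower (4% and 44%, against 6.86% and 4.42% of all genes tested). The list median was -0.96 against Endo and -0.80 against Meso. With each other scaling 13 were lower, and with median-of-ratios scaling 0 were higher. The pyruvate kinase gene PKM was at 207 and 196 TPM in Ecto, 1270.4 and 1123 in Endo and 1453 and 1261 in Meso (differences -2.56 ± 0.11 against Endo and -2.74 ± 0.11 against Meso; adjusted p = 0.000172). LDHA, which makes lactate from pyruvate, was at 116 and 132 TPM in Ecto, 795 and 707 in Endo and 974 and 873 in Meso (differences -2.59 ± 0.11 against Endo and -2.89 ± 0.11 against Meso; adjusted p = 0.000205). PDK1, which holds pyruvate back from the mitochondria, was at 2.398 and 3.49 TPM in Ecto, 24.7 and 32.3 in Endo and 35.9 and 34.3 in Meso (adjusted p = 0.00199), and BNIP3, a mitophagy receptor induced by low oxygen, at 28.97 and 44.4 TPM in Ecto, 269 and 289 in Endo and 194 and 166 in Meso (adjusted p = 0.00141). GAPDH was at 4301 and 4483 TPM in Ecto, 4709 and 4286 in Endo and 3569.5 and 2974 in Meso and was not called. The gene called higher was ENO2, the neuronal enolase, at 81.8 and 86.3 TPM in Ecto, 45.3 and 31.2 in Endo and 11.2 and 18.6 in Meso (adjusted p = 0.0413). ALDOA, an aldolase that most cells make, was at 3.099 and 1.93 TPM in Ecto and at most 6.46 TPM in any of the 6 libraries. Several of these genes have processed pseudogenes that could share reads, and how the authors' counting treated them is not stated.

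Several extracellular matrix and class I antigen presentation genes were lower too. Of 17 tested stromal matrix genes, 0 were higher and 6 lower (0% and 35.3%, against 6.86% and 4.42% of all genes tested). With quantile normalization 1 was higher and 8 lower. COL6A1, a collagen VI chain, was at 70.4 and 62.6 TPM in Ecto, 1001 and 937 in Endo and 529 and 510.4 in Meso (differences -3.85 ± 0.09 against Endo and -2.95 ± 0.09 against Meso; adjusted p = 7.7e-05). COL1A2, a collagen I chain, was at 20.3 and 21.2 TPM in Ecto, 178 and 202 in Endo and 102 and 110.01 in Meso (adjusted p = 0.000343), and FN1, which encodes fibronectin, at 35.8 and 36.9 TPM in Ecto, 247 and 206 in Endo and 81.3 and 61.6 in Meso (adjusted p = 0.0132). Of 7 tested MHC class I genes, 0 were higher and 4 lower (0% and 57.1%). HLA-C was at 9.47 and 8.85 TPM in Ecto, 123 and 112 in Endo and 27.2 and 27.3 in Meso (differences -3.55 ± 0.17 against Endo and -1.48 ± 0.17 against Meso; adjusted p = 0.00273), and B2M, the shared light chain, at 16.3 and 10.8 TPM in Ecto, 46.1 and 58.9 in Endo and 30.03 and 24.4 in Meso (adjusted p = 0.046). The HLA genes are near-identical in part, so their values are uncertain.

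Of 21 tested Polycomb, KDM6 and MLL3/4 genes, 2 were higher and 0 lower (9.52% and 0%, against 6.86% and 4.42% of all genes tested). EZH2, the H3K27 methyltransferase, was at 229.6 and 181 TPM in Ecto, 87.4 and 72.2 in Endo and 109 and 136 in Meso (differences 1.35 ± 0.19 against Endo and 0.74 ± 0.19 against Meso; adjusted p = 0.0322). CBX2, a reader of that mark, was at 288 and 262 TPM in Ecto, 142 and 148 in Endo and 129.99 and 117 in Meso (adjusted p = 0.00356). With median-of-ratios scaling CBX2 alone was called. KDM6A, the UTX gene, was at 10.9 and 8.36 TPM in Ecto, 31.3 and 34.8 in Endo and 4.29 and 4.14 in Meso, lower than in Endo (-1.69 ± 0.29) and higher than in Meso (1.02 ± 0.29; adjusted p = 0.0461). Of 24 tested replication and mitosis genes, 4 were higher and 1 lower (16.7% and 4.17%), while median-of-ratios scaling gave 2 higher and 3 lower, so no direction holds for that list. TOP2A, a topoisomerase of dividing cells, was at 844 and 774 TPM in Ecto, 434 and 451 in Endo and 337 and 385 in Meso (differences 0.87 ± 0.10 against Endo and 1.16 ± 0.10 against Meso; adjusted p = 0.00309).

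The wild-type genes were then followed in the knockouts, whose libraries the rule did not use. The genes targeted in them were still measured in RNA. In XKO, KDM6A was at 15.2 and 14.4 TPM in Ecto, 34.7 and 36.1 in Endo and 5.05 and 3.95 in Meso. In DKO, KDM6A was at 11.7 and 14.1 TPM in Ecto, 20.7 and 19.4 in Endo and 8.71 and 6.72 in Meso. In WT, UTY was at 29 and 20.9 TPM in Ecto, 23.5 and 22.6 in Endo and 11.9 and 10.8 in Meso. In YKO, UTY was at 38.7 and 37 TPM in Ecto, 26.5 and 31 in Endo and 13.4 and 14 in Meso. In DKO, UTY was at 27.3 and 34.3 TPM in Ecto, 31.7 and 22.5 in Endo and 26.4 and 21.3 in Meso. Beside the wild-type KDM6A values above, neither gene was below WT in every layer of its own knockout, so its TPM does not check the genotype labels, and XKO, YKO and DKO stand for the libraries labelled so. In XKO, both ectoderm libraries lay above all 4 endoderm and mesoderm libraries for 887 of the 1060 higher genes, 83.7%, against 22.2% of all tested genes. They lay below them for 499 of the 682 lower genes, 73.2%, against 9.58% of all tested genes. In YKO the counts were 892 (84.2%, against 27% of all tested genes) and 448 (65.7%, against 8.84%). In DKO the counts were 556 (52.5%, against 16.7%) and 395 (57.9%, against 12%). The order was opposite for 1, 2 and 24 of the higher genes and for 0, 4 and 14 of the lower genes in XKO, YKO and DKO. Whether these shares differ between genotypes was not tested.

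Of the 15 genes with the largest excess, all 15 kept their order in XKO and in YKO and 10 did in DKO. The exceptions in DKO were LHX5, RIPPLY3, JAKMIP2-AS1, SEZ6 and SLITRK1. Of all 1060 higher genes, 83.7%, 84.2% and 52.5% had this order in XKO, YKO and DKO, and of all tested genes 22.2%, 27% and 16.7%. RIPPLY3 was at 4.41 and 7.47 TPM in Ecto DKO, against 53.3 and 69.8 TPM in Endo DKO. SEZ6 was at 0 and 1.095 TPM in Ecto DKO. Other leading genes were also high in Ecto DKO, such as PTN at 2177 and 2422 TPM, MAP2 at 296 and 332 TPM and VAT1L at 99.8 and 92.7 TPM. MAP2 was also present in the other DKO layers, at 78.9 and 83.7 TPM in Endo and 143 and 143 TPM in Meso, where wild type was listed at 0. Of the 15 genes with the largest deficit, all 15 kept their order in XKO and in YKO and 13 in DKO, with GAL and SCARF2 as exceptions. Of all 682 lower genes, 73.2%, 65.7% and 57.9% had this order in XKO, YKO and DKO, and of all tested genes 9.58%, 8.84% and 12%. Among the neural progenitor genes called higher, 19, 18 and 13 of 19 kept their order in XKO, YKO and DKO. For the glycolysis and hypoxia genes called lower the counts were 11, 9 and 6 of 11, and for the stromal matrix genes 4, 3 and 0 of 6.

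**Figure D5:**
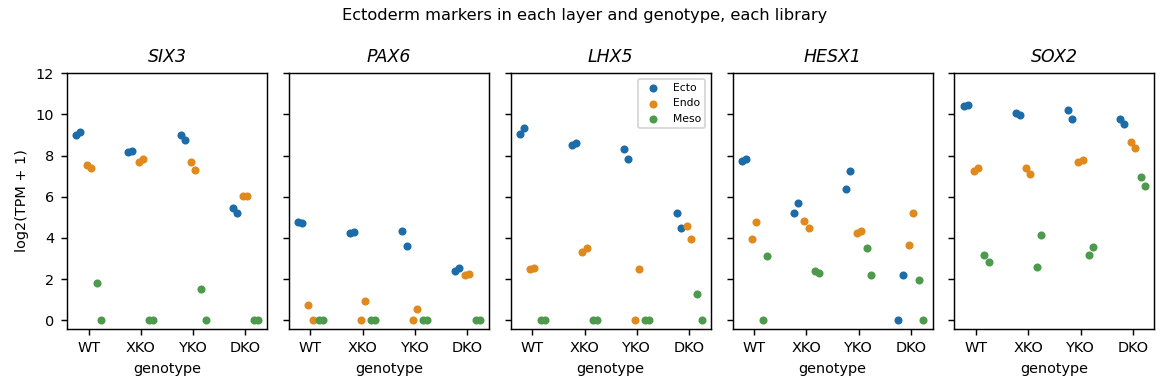
Level of the 5 ectoderm markers in each library of each layer (colours) and genotype (horizontal axis), as log2(TPM + 1); each point is 1 library. In WT, XKO and YKO the ectoderm points lie above those of the other layers for all 5 markers; in DKO they do so for PAX6 and SOX2, while for SIX3, LHX5 and HESX1 they overlap or lie below the endoderm points.

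The markers were also followed in each genotype. SIX3 was at 284 and 296 TPM in Ecto XKO, 513 and 425 in Ecto YKO and 42.6 and 36.1 in Ecto DKO, below the 64.4 and 65.3 TPM of Endo DKO. LHX5 was at 369 and 391 TPM in Ecto XKO, 317 and 226 in Ecto YKO and 36.2 and 21.3 in Ecto DKO. HESX1 was at 36.4 and 51.4 TPM in Ecto XKO, 81.6 and 152 in Ecto YKO and 0 and 3.64 in Ecto DKO. The ectoderm libraries of DKO were thus the lowest of the 4 genotypes for these 3 genes. SOX2 was at 884 and 746 TPM in Ecto DKO, and in the other DKO layers it lay at 403 and 327 TPM (Endo) and 124 and 92.3 TPM (Meso), above the wild-type values. The difference between Ecto and the mean of Endo and Meso was compared between DKO and WT with limma over all 24 layer libraries. For SOX2 its change from WT to DKO was -3.23 ± 0.40 on the log2 scale. Over all genes, this difference was larger in DKO (adjusted p under 0.05) for 433 of 16402 tested genes (2.64%) and smaller for 689 (4.2%). Among the 1060 genes higher in wild-type ectoderm it was larger for 4 and smaller for 315, and among the 682 lower genes larger for 169 and smaller for 16. The same wild-type libraries chose these genes and enter the comparison, and the markers were set with wild-type results known. Such a choice by itself favours a smaller difference for the higher genes and a larger one for the lower genes. The counts among the called genes and the marker values are therefore a description and no support.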

How the data were processed

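Polyadenylated RNA of SEES3 cells was extracted with TRIzol and made into libraries with a directional kit, per the labels' protocols. The authors deposited 1 TPM table per layer (unit tpm); the submitters' processing notes name STAR, RSEM, featureCounts and GRCh38 (hg38), with no versions. The annotation release and any gene filter are not stated there. Each of the 3 tables held the same 16742 genes, and each column summed to 1000000. The columns carry no replicate numbers, so libraries are numbered by column as names only. The labels do not say whether both libraries of a layer came from separate cultures, so p-values measure the spread between these libraries, which may be technical.

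The 3 wild-type groups entered 1 limma fit (3.58.1, R 4.3.3; empirical Bayes with trend) on log2(TPM + 1), over genes at 1 TPM or more in at least 2 of the 6 libraries. This scale understates the fold of genes at a few TPM. The DKO comparison used 1 coefficient per layer and genotype over 24 libraries. Symbols were matched by Ensembl identifier (99.8%), and positions are GENCODE v29 (GRCh38). On simulated data for the comparison against both layers, with 15444 genes, 26%, 78%, 84% and 98% of changes of 1, 2, 3 and 4 on the log2 scale were recovered, with 0 false calls. The noise was normal, changes were placed away from low levels, and unchanged genes had the same mean in all layers. These rates therefore do not cover genes listed at 0, genes at low levels or genes that differ from 1 layer only. Alternatives were pseudocounts, filters, scalings, no trend, all 24 libraries, stricter thresholds and leaving out each library. The genes and the 30 lists were chosen with earlier results of these data known. Named were the 5 markers, the 15 genes per direction with the largest smaller difference (mean of at least 5 TPM where high, no overlap of libraries) and up to 4 called members per list and direction; other members are given as values. The text gives a selection. Some genes that entered the fits and list counts are not reported here by name.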

Additional observations from a re-analysis of the deposited data

Results flagged for a closer look

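The excess of the 5 ectoderm markers in ectoderm over the mean of the other layers was compared between DKO and WT (limma over 24 libraries, log2 scale). The change from WT to DKO was -2.59 ± 0.55 for SIX3, -3.24 ± 0.50 for PAX6, -5.53 ± 0.71 for LHX5, -6.43 ± 1.09 for HESX1 and -3.23 ± 0.40 for SOX2 (estimate ± SE). The comparison subtracts the wild-type libraries in which these genes were known to be high, so the marker values are given as a description, with no p. Over all 16402 genes tested in this way, 433 had a larger and 689 a smaller difference in DKO. No group holds enough libraries for a check of single libraries that stand apart.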

How the results depend on the processing

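At an adjusted p under 0.01, 715 genes were higher and 883 lower than Endo, 1226 higher and 861 lower than Meso, and 361 higher and 278 lower than both. With a difference of at least 1 on the log2 scale also required, 1229 were higher than Endo and 667 higher than both. Under the other alternatives run (pseudocounts of 0.1 and 5, no filter, a filter of 5 TPM, no trend, median-of-ratios scaling, quantile normalization, all 24 libraries) the counts against both layers were 789 to 1182 higher and 530 to 861 lower. Without 1 library, the counts were 764 to 1611 higher and 861 to 1550 lower than Endo, 1224 to 2111 higher and 860 to 1397 lower than Meso, and 394 to 723 higher and 321 to 422 lower than both. In those fits the lone library of a layer is assumed to vary like the others, and fewer libraries were fitted. The shares with the same order were 80.5% to 85.2% (higher) and 72.9% to 82.1% (lower) in XKO, 78.9% to 84.8% and 65.9% to 74.5% in YKO, and 49.5% to 51.9% and 55.1% to 61.7% in DKO without 1 library. The DKO comparison gave 267 to 391 larger and 420 to 639 smaller differences without 1 library, and the counts fell by over 1.5 times without Ecto WT 2 (267 and 430), Ecto DKO 2 (270 and 420) and, for smaller differences, Ecto WT 1 (424). Of 544 alternatives of the 34 named genes, 530 kept direction and call, 5 lost the call, 9 (SIX3 and HESX1) gained it and 0 changed direction. All named genes but the 5 markers were chosen from these data for large differences without overlap. Their stability was thus largely set in advance and does not extend to the other called genes. No paired analysis was possible because the columns of the layer tables carry no replicate numbers. The tables give TPM without depth, which leaves values near 0 without a limit.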

Other observations

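Of 18 tested retinoic acid pathway genes, 1 was higher in ectoderm than in both layers and 0 were lower (5.56% and 0%, against 6.86% and 4.42% of all genes tested). CYP26C1, a retinoic acid degrading enzyme of the anterior head, was at 8.13 and 5.07 TPM in Ecto, 0 and 1.13 in Endo and 0 in both Meso libraries (limma adjusted p = 0.0259). CYP26A1, its relative, was at 138 and 224 TPM in Ecto, 531 and 480.4 in Endo and 0 and 1.28 in Meso. CRABP2, a retinoic acid binding protein gene, was between the other layers, at 554 and 704 TPM in Ecto, 113 and 95.95 in Endo and 2391 and 2252 in Meso, and ALDH1A2, which makes retinoic acid, was at 0 and 0.9096 TPM in Ecto, 0 in both Endo libraries and 35.3 and 24.3 in Meso. Of 24 tested cadherin, claudin and mesenchymal transition genes, 1 was higher and 2 lower (4.17% and 8.33%). CDH2, the neural cadherin, was at 269.6 and 269 TPM in Ecto, 369 and 387 in Endo and 184 and 190.5 in Meso, and CDH1, the epithelial cadherin, at 8.79 and 12.2 TPM in Ecto, 373 and 388 in Endo and 0 and 1.25 in Meso. ZEB2, a repressor of epithelial genes that is also made in neural progenitors, was the gene called higher, at 36.1 and 31.4 TPM in Ecto, 0 and 0.757 in Endo and 7.32 and 11.8 in Meso (adjusted p = 0.0328).

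Of 21 tested cholesterol synthesis genes, 3 were higher and 2 lower in ectoderm (14.3% and 9.52%, against 6.86% and 4.42% of all genes tested), and with median-of-ratios scaling 1 was higher and 3 lower. Of 19 tested p53 targets, 0 were higher and 1 was lower (0% and 5.26%). It was the antiproliferative gene BTG2, at 10.8 and 8.04 TPM in Ecto, 179.9 and 195 in Endo and 49.5 and 55.2 in Meso (adjusted p = 0.000847). Of 9 tested endothelial and blood genes, 1 was higher and 1 lower (11.1% and 11.1%), TAL1, at 8.33 and 6.48 TPM in Ecto and listed at 0 in all 4 Endo and Meso libraries, and SOX18. Of 9 tested trophoblast and amnion genes, 2 were higher, KRT7 and IGFBP3, and 2 lower, GATA2 and GATA3 (22.2% and 22.2%). TAL1, KRT7 and IGFBP3 stayed below 13 TPM in each Ecto library.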
